A study of Homo sapiens with 6 samples.

Results

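The microRNAs miR-26 and miR-101, both known as repressors of the histone methyltransferase EZH2, were followed in A549 cells with and without the *MIR21* locus. The 5 mature strands described, hsa-miR-26a-5p, hsa-miR-26a-2-3p, hsa-miR-26b-5p, hsa-miR-26b-3p and hsa-miR-101-3p (the prefix hsa, for human, is left out in most places below), were taken by name from 2588 miRNAs in the deposited table, and rows of the same name were summed. All 5 were present in the table and all 5 passed the filter on low values (3 or more of the 6 libraries with a value of 1 or higher), as did 607 miRNAs in total. miR-26b-3p passed with exactly 3 libraries, Ctrl replicate 3 and *MIR21*-KO replicates 1 and 2.

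A549 cells are a long-established human line from an adenocarcinoma of the lung. Small RNA was sequenced from 3 libraries of the parental cells (Ctrl) and 3 libraries of cells in which *MIR21* had been deleted with CRISPR/Cas9 and a pair of guide RNAs (*MIR21*-KO), all taken 48 h after seeding and grown in the same medium. The deleted cells were obtained as single-cell clones, and neither the number of clones behind the 3 libraries nor separate cultures are stated in the labels, so p-values measure only the spread between these libraries, which may be technical. Deletion was visible in the libraries, with 4232696 to 6782871 reads of miR-21-5p in Ctrl and 1127 to 2087 in *MIR21*-KO.

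In the canonical pathway a miRNA hairpin is cut into a duplex, of which mainly 1 strand is loaded into an Argonaute protein and pairs with messenger RNAs through its seed, the bases 2 to 8 from its 5′ end. EZH2 is the catalytic subunit of the Polycomb repressive complex PRC2, which silences genes by methylating histone H3, and it is often abundant in tumors. miR-101 and miR-26a are widely described as tumor suppressors that pair with the EZH2 message, and the *MIR26* genes lie in genes of small phosphatases (CTDSP1, CTDSP2 and CTDSPL) that act on RNA polymerase II and the retinoblastoma protein.

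The mature sequences, from RefSeq on GRCh38.p14, are shown because the seed, in capitals, sorts the 5 strands into those with a shared target preference and those without.
hsa-miR-26a-5p: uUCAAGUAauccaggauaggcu
hsa-miR-26b-5p: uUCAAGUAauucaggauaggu
hsa-miR-101-3p: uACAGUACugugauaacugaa
hsa-miR-26a-2-3p: cCUAUUCUugauuacuuguuuc
hsa-miR-26b-3p: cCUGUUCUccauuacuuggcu

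miR-26a-5p and miR-26b-5p have the same seed, UCAAGUA, and differ by 2 substitutions outside it, C11U and C21U (base of miR-26a-5p, position from its 5′ end, base of miR-26b-5p), and by the length of 22 against 21 bases. Reads of these strands can therefore be told apart in principle. The seed of miR-101-3p, ACAGUAC, was held by no other mature miRNA of the RefSeq table, whereas UCAAGUA was held by 4, the others being miR-1297 and miR-4465. miR-1297 had a single read in Ctrl replicate 3 and in *MIR21*-KO replicate 2 and no read elsewhere, and miR-4465 had none in any library. Practically all reads with the miR-26 seed thus came from miR-26a-5p and miR-26b-5p.

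The hairpins are shown because miR-26a-5p and miR-101-3p each arise from 2 loci and their reads cannot be assigned to either one from the mature strand. Described strands are in capitals.
MIR26A1: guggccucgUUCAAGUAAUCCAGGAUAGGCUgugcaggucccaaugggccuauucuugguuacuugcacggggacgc
MIR26A2: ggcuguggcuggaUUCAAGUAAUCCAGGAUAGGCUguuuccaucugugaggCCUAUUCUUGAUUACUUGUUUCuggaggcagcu
MIR26B: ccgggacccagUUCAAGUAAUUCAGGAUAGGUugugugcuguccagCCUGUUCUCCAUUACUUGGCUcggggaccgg
MIR101-1: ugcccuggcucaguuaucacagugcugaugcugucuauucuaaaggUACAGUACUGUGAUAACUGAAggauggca
MIR101-2: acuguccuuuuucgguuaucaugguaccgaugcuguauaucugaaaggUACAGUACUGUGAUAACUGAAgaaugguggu

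On GRCh38, MIR26A1 lies at chr3:37969404-37969480 on the plus strand in an intron of CTDSPL, MIR26A2 at chr12:57824609-57824692 on the minus strand in an intron of CTDSP2, and MIR26B at chr2:218402646-218402722 on the plus strand in an intron of CTDSP1. Each lies on the strand of its host gene. MIR101-2 lies at chr9:4850297-4850375 on the plus strand in an intron of RCL1, on the strand of that gene, and MIR101-1 at chr1:65058434-65058508 on the minus strand within no other gene of GENCODE 29. The strands of miR-26a-2-3p and miR-26b-3p are each particular to 1 hairpin.

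The link to EZH2 can be read from its message. In the 3′ untranslated region of EZH2 (262 bases in the GENCODE 29 transcript with the longest such region, searched on the sense strand), the 7 bases opposite the miR-26 seed, TACTTGA, occurred at 1 position, and those opposite the miR-101-3p seed, GTACTGT, at 2 positions. The stretches are printed to show these matches in capitals.
miR-26 match, chr7:148807385-148807414, minus strand: tcaactttgaataaagaaTACTTGAacttg
miR-101 match, chr7:148807576-148807605, minus strand: tagcttcaggaacctcgaGTACTGTgggca
miR-101 match, chr7:148807521-148807550, minus strand: aaattctgaatttgcaaaGTACTGTaagaa

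Of the 16255 genes with a 3′ untranslated region at least as long, 1.77% held TACTTGA and 1.33% held GTACTGT in its first 262 bases. Among the other core subunits of PRC2, EED held GTACTGT at 1 position and TACTTGA at none, in 740 bases. SUZ12 held neither in 2042 bases. These matches are letters in a sequence, and neither pairing nor messenger RNA was measured in these libraries.

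The levels were read from values that the authors had deposited as TMM-scaled CPM, in which each library is divided by 1 factor. The libraries held 5577287 to 9768152 miRNA reads. Before the conditions were compared, the libraries were found to stand apart along another line. The first principal component of 327 miRNAs (mean value 10 or higher), computed without the 5 strands and without miR-21, carried 76.4% of the variance. It divided the libraries into a set A, made up of *MIR21*-KO replicate 3 with Ctrl replicates 1 and 2, and a set B of the remaining libraries, namely *MIR21*-KO replicates 1 and 2 with Ctrl replicate 3. These sets are no groups of the study and no label names them. The differences between the conditions within each set are given below for the 5 strands only. The libraries were not free of miRNAs typical of other cells. Of 9 such markers 4 passed the filter, chiefly miR-126-3p of endothelium and miR-9-5p of neural cells, and the 9 summed to 1362 to 4508 in Ctrl and 835 to 2680 in *MIR21*-KO. All 4 had a negative log2 fold change, with a median of -1.20 beside 0.24 for all 607 miRNAs, and 0 were called with limma. The marker of myeloid blood cells, miR-223-3p, had at most 1 read in a library. Blood markers were not absent, since miR-451a of red blood cells passed the filter, at 12 to 154 reads per library. The liver marker miR-122-5p passed as well, at 56 to 521 reads. Of 6 epithelial markers 5 passed the filter, 4 of them with a negative log2 fold change and 0 called with limma. The 6 summed to 1374 to 2171 in Ctrl and to 879 to 1269 in *MIR21*-KO, without overlap. Of single miRNAs tested, 6.59% were lower in *MIR21*-KO without overlap. miR-200b-3p made up most of the sum, with means of 1496 in Ctrl and 715 in *MIR21*-KO. miR-200c-3p went the other way, with means of 42.8 and 73.0. miR-205-5p had at most 4 reads. The part of these markers in the results below was not tested.

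hsa-miR-26a-5p had the highest mean level of the 5 strands. Its deposited value was 4165, 2519 and 5607 in Ctrl replicates 1 to 3, against 6077, 5204 and 6288 in *MIR21*-KO replicates 1 to 3, from 9318 to 84367 reads. It ranked between place 14 and place 35 of all miRNAs in a library. Ctrl replicate 2 was the lowest library and the groups overlapped, since Ctrl replicate 3 lay above *MIR21*-KO replicate 2. The mean in Ctrl was 4097 ± 1545 (SD, n = 3), that in *MIR21*-KO 5856 ± 575 (SD, n = 3). The log2 fold change on log2(value + 1) was 0.59, with a 95% interval from -0.36 to 1.53, and did not pass the test (limma, standard error 0.40, adjusted p = 0.654 by the Benjamini-Hochberg method over 607 miRNAs).

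hsa-miR-101-3p, the only abundant strand of its hairpins, was nearly level across the libraries. Its value was 3772, 3617 and 2838 in Ctrl, against 3021, 3722 and 2992 in *MIR21*-KO, from 13383 to 51609 reads, at places 24 to 34. Both the highest and the lowest value belonged to Ctrl libraries, and the highest was 1.33 times the lowest. The mean in Ctrl was 3409 ± 500.3 (SD, n = 3), that in *MIR21*-KO 3245 ± 413 (SD, n = 3). Its log2 fold change was -0.07, with a 95% interval from -0.88 to 0.74 (standard error 0.35, adjusted p = 0.938 from limma), so changes of a size within these bounds could not be told from none.

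Across the 6 libraries the SD of miR-101-3p on log2(value + 1) was 0.18, against a median of 0.81 over the 332 miRNAs of mean value 10 or higher, of which 1 had a smaller SD. This evenness depended on the scaling. With each library scaled to its reads other than miR-21 the SD was 0.32 and 26 miRNAs had a smaller SD, with median-of-ratios factors it was 0.23 and 10 did, and with median centring it was 0.41 and 49 did. With scaling to all reads, miR-21 included, the SD rose to 0.77, and 50 of the 332 miRNAs had a smaller SD. The SD of miR-26a-5p was 0.50 as deposited. It was above that of miR-101-3p under each of these 5 scalings, though only at 0.43 against 0.41 with median centring.

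As a share of reads other than miR-21, which does not depend on the scaling factor, miR-101-3p made up 0.654% ± 0.0503 of Ctrl (SD, n = 3), beside 0.536% ± 0.157 of *MIR21*-KO (SD, n = 3). The share in *MIR21*-KO replicate 2 was 0.713% (95% Wilson interval 0.706% to 0.719%), above every Ctrl library, while *MIR21*-KO replicates 1 and 3 held 0.484% (0.479% to 0.488%) and 0.413% (0.407% to 0.418%), below every Ctrl library. These intervals cover counting error only, since reads were not identified by molecule, and the libraries of a group differed by more. For miR-26a-5p the share in Ctrl was 0.826% ± 0.454 (SD, n = 3), that in *MIR21*-KO 0.946% ± 0.0687 (SD, n = 3).

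hsa-miR-26b-5p was scarcer and varied more. Its value was 285, 207 and 975 in Ctrl, against 972, 874 and 541 in *MIR21*-KO, from 764 to 13500 reads, at places 63 to 119. Ctrl replicate 3 was the highest of all libraries and the other Ctrl replicates the lowest, so the groups overlapped, with a Ctrl mean of 489 ± 423 (SD, n = 3) beside 796 ± 226 (SD, n = 3) for *MIR21*-KO. The log2 fold change was 0.998, with a 95% interval from -0.51 to 2.51 (standard error 0.65, adjusted p = 0.643 from limma).

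The order of the miR-26b-5p values followed the library sets. All set B libraries, at 874 to 975, lay above all set A libraries, at 207 to 541, a difference of the mean log2 values of 1.56. Within set A the only *MIR21*-KO library was higher than the mean of the Ctrl libraries by 1.15 on the log2 scale, and within set B the difference was -0.08. Each of these contrasts rests on 1 library of a condition, so neither was tested. Sets that did not overlap were common, with 57.2% of the 607 miRNAs tested and 35.1% in the direction of miR-26b-5p. Without Ctrl replicate 3 the log2 fold change of miR-26b-5p was 1.67 (adjusted p = 0.116 from limma, unadjusted p = 0.00878), and without Ctrl replicate 2 it was 0.55 (adjusted p = 0.970 from limma). The fit without Ctrl replicate 3 has no Ctrl library in set B, so condition and set cannot be told apart there. In that fit 107 of the 607 miRNAs were higher and 66 lower with an unadjusted p under 0.05 from limma.

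The same contrasts were alike for miR-26a-5p and miR-26b-5p and differed for miR-101-3p. miR-26a-5p in *MIR21*-KO was higher by 0.96 on the log2 scale within set A and by 0.00418 within set B. miR-101-3p was at -0.30 within set A and at 0.24 within set B. With a term for the library set, the log2 fold changes were 0.48 for miR-26a-5p, 0.54 for miR-26b-5p and -0.03 for miR-101-3p (adjusted p = 0.233, 0.228 and 0.932 from limma). The sets were read from the same libraries, so these p-values are not independent of them.

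**Figure D1:**
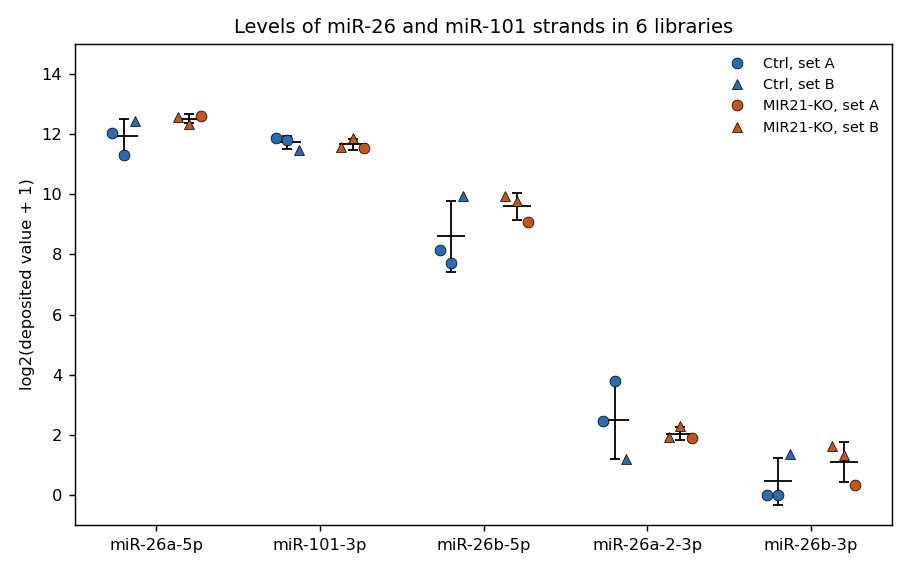
Levels of the 5 strands as log2(deposited value + 1) in each library, Ctrl in blue and *MIR21*-KO in orange, replicates 1 to 3 from left to right, circles for library set A and triangles for set B. Horizontal bars are group means and error bars the SD (n = 3). Conditions overlap for every strand, and for miR-26b-5p the triangles lie above the circles, as they must for miR-26b-3p, which passed the filter through these 3 libraries alone.

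Together, the strands that carry the miR-26 seed summed to 4450, 2725 and 6583 in Ctrl and to 7049, 6078 and 6829 in *MIR21*-KO. The mean in Ctrl was 4586 ± 1932 (SD, n = 3), that in *MIR21*-KO 6652 ± 509 (SD, n = 3), with Ctrl replicate 3 above *MIR21*-KO replicate 2. miR-26a-5p made up 85.2% to 93.6% of this sum in each library. The make-up of the miR-26 pool followed the library sets rather than the conditions, with miR-26a-5p at 92.1% to 93.6% in set A and at 85.2% to 86.2% in set B. This draws on the same values as the set order of miR-26b-5p and is no further observation. miR-26a-5p alone overlapped between the sets.

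Expressed as a ratio within a library, which hardly depends on the scaling factor, miR-26a-5p exceeded miR-26b-5p 14.6, 12.2 and 5.75 times in Ctrl and 6.25, 5.95 and 11.6 times in *MIR21*-KO. The groups overlapped, and their difference of -0.41 in the mean log2 ratio did not pass (two-sided exact permutation test, p = 0.5, adjusted p = 0.6 over the 4 ratios tested). With 3 libraries against 3 this exact permutation test cannot go below p = 0.1. The sets did not overlap, which restates the make-up of the miR-26 pool given above.

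miR-26a-5p was 1.10, 0.696 and 1.98 times miR-101-3p in Ctrl and 2.01, 1.398 and 2.10 times in *MIR21*-KO. In Ctrl replicate 2 miR-101-3p was thus the more abundant, and in every other library miR-26a-5p was. The mean log2 ratio was higher in *MIR21*-KO by 0.65 (two-sided exact permutation test, p = 0.2, adjusted p = 0.6 over the 4 ratios), from 0.20 ± 0.75 (SD, n = 3) in Ctrl to 0.85 ± 0.32 (SD, n = 3). The groups overlapped here too. Since all these strands are 21 or 22 bases long, no scaling by length was needed for such ratios, but efficiency of ligation can differ between miRNAs and was not measured. In Ctrl, miR-26a-5p and miR-101-3p did not differ beyond the spread between libraries, while miR-26b-5p lay below both in every library.

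**Figure D2:**
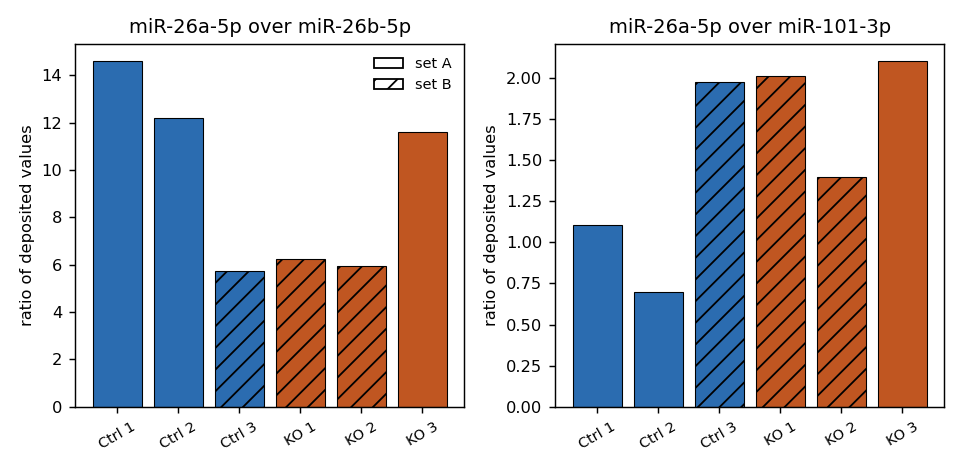
Ratio of the deposited values of miR-26a-5p to miR-26b-5p (left) and to miR-101-3p (right) in each library, with Ctrl in blue, *MIR21*-KO (KO) in orange and hatching for library set B. On the left the hatched bars stand at 5.75 to 6.25 and the plain bars at 11.6 to 14.6, whichever the condition, and on the right the bars run from 0.696 to 2.10.

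The opposite strands of the miR-26 hairpins were close to the limit of detection. miR-26a-2-3p had 17, 47 and 9 reads in Ctrl and 39, 54 and 21 reads in *MIR21*-KO, or 4.54, 12.7 and 1.27 against 2.81, 3.89 and 2.73 on the deposited scale. Ctrl replicate 2, the library with the lowest miR-26a-5p, had the highest value, and Ctrl replicate 3 the lowest. The log2 fold change was -0.44, with a 95% interval from -1.93 to 1.05 (standard error 0.64, adjusted p = 0.792 from limma). Within set A the difference between the conditions was -1.22 on the log2 scale and within set B it was 0.93, so the sets differed in direction. The overall direction rested on Ctrl replicate 2, without which the log2 fold change was 0.21, and it turned to 0.65 with scaling to all reads. With a pseudocount of 0.1 it was again -0.44, and with 10 it was -0.24. The recovered reads gave -0.999 with edgeR and -1.22 with DESeq2 (adjusted p = 0.743 and 0.648). Why these tools gave larger values was not tested.

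miR-26b-3p had 0, 0 and 11 reads in Ctrl and 29, 21 and 2 reads in *MIR21*-KO. On the deposited scale this was 1.55 in Ctrl replicate 3 and 2.09, 1.51 and 0.260 in *MIR21*-KO. The count of 0 in Ctrl replicates 1 and 2 allows up to 3 reads, or 0.801 and 0.811, so the strand was not detectable there at this depth. The 3 libraries with more than 3 reads, which were also the 3 that let this strand pass the filter, were those of set B. Its order between the sets was therefore fixed by the filter and is no further observation of the division seen for miR-26b-5p. The difference between the conditions was 0.33 on the log2 scale within set A and 0.13 within set B. The log2 fold change was 0.65, with a 95% interval from -0.54 to 1.83 (standard error 0.51, adjusted p = 0.694 from limma), and it depended on the pseudocount, with 2.09 at 0.1 and 0.10 at 10.

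The 5p strand of each miR-26 hairpin far outnumbered its partner. There were 198 to 4415 times as much miR-26a-5p as miR-26a-2-3p in a library, where miR-26a-5p may also come from MIR26A1, and 466 to 2080.5 times as much miR-26b-5p as miR-26b-3p in the 4 libraries with a read of the latter. The strand ratios differed between the conditions by less than the spread between libraries (miR-26a-2-3p over miR-26a-5p, difference of mean log2 ratios -1.02, and miR-26b-3p over miR-26b-5p, -0.35). The exact permutation test gave p = 0.6 and p = 0.3, two-sided, and an adjusted p of 0.6 for both. The difference for miR-26b was 1.09 with a pseudocount of 0.1, so its direction depended on the pseudocount, and 2 Ctrl libraries had 0 reads.

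Partners outside the 5 strands had fewer reads than miR-26a-2-3p. miR-26a-1-3p, the 3p strand of MIR26A1, had 0 to 6 reads per library, and miR-101-5p, the partner of miR-101-3p in MIR101-1, had 0 to 2. Neither passed the filter, so no fold change is given. miR-144-3p, which shares all but the last base of the miR-101-3p seed (C8U, base of miR-101-3p first), had 0 to 2 reads.

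The table held 2 rows each for miR-26a-5p and miR-101-3p, which each arise from 2 loci. In miR-26a-5p, 49.1% to 50.4% of the reads were in the second row. In miR-101-3p, 50.9% to 51.8% were, and the 95% Wilson interval of each library lay above an even split, the nearest bound being 50.1% in Ctrl replicate 1. For 27 of 33 miRNAs with 2 rows and a mean value of 10 or higher, the larger row held at most 55% of the reads. The rows do not show which locus was transcribed, since the mature strands are identical, and the handling of reads that fit several loci is not given in the sources used here. With the row of the highest mean in place of the sum, the log2 fold changes of miR-26a-5p and miR-101-3p were 0.58 and -0.07.

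For the 5 strands as a whole, 0 passed an adjusted p of 0.05 in either direction with limma, 0 had an unadjusted p under 0.05 (11.2% of all 607 miRNAs did), and edgeR and DESeq2 on the recovered reads also called 0. Among all 607 miRNAs tested, 0.824% were called, all of them lower. In 0 of the 5 strands were the conditions free of overlap, beside 16.1% of the 607 miRNAs (9.56% with *MIR21*-KO above Ctrl and 6.59% with it below). The median log2 fold change of the 607 miRNAs was 0.24. miR-26a-5p, miR-26b-5p and miR-26b-3p lay above this median and miR-101-3p and miR-26a-2-3p below it.

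**Figure D3:**
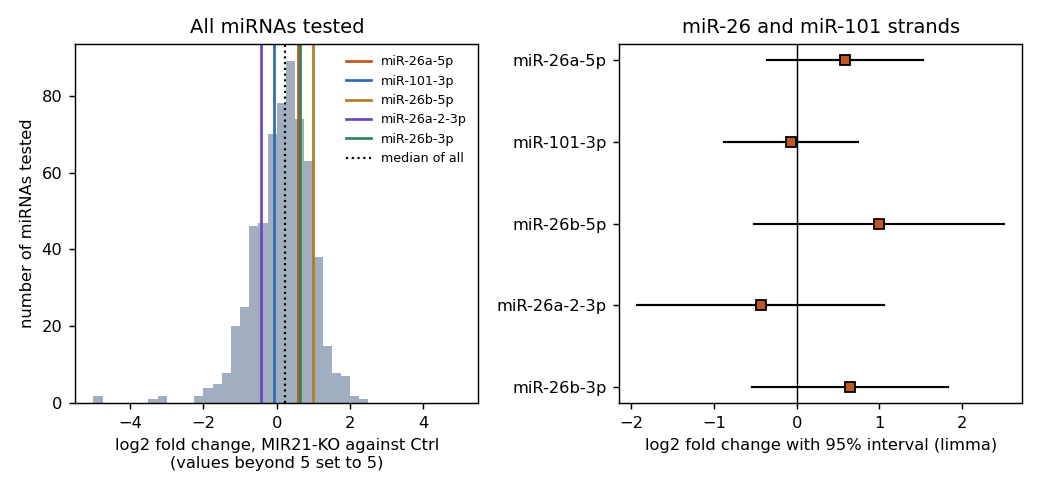
Left, histogram of the log2 fold changes of the 607 miRNAs tested (*MIR21*-KO against Ctrl, number of miRNAs per bin), with lines at the 5 strands and a dotted line at the median of 0.24. Right, the log2 fold changes of the strands with 95% intervals from limma, each of which includes 0.

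Scaling decided whether the abundant strands were called. When each library was scaled to all its miRNA reads, of which miR-21-5p is the greater part in Ctrl only, miR-26a-5p, miR-26b-5p and miR-101-3p were called higher, with log2 fold changes of 1.97, 2.38 and 1.32 (adjusted p = 0.0246, 0.0450 and 0.0290 from limma). With this scaling 32.3% of all miRNAs tested were called higher and their median log2 fold change was 1.34. The strands are to be read against that median, which miR-101-3p did not exceed. With reads other than miR-21 as the total, the values were 0.33, 0.74 and -0.32. miR-26a-5p and miR-26b-5p had a positive log2 fold change under all 5 scalings, and miR-101-3p a negative one under all but the scaling to all reads.

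**Figure D4:**
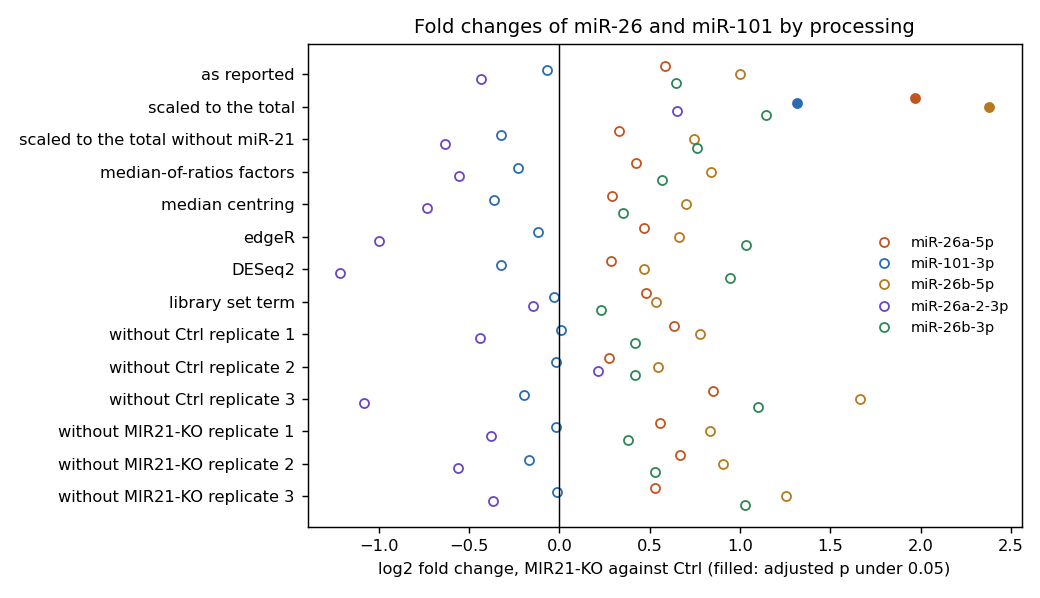
Log2 fold changes of the 5 strands (colors) for the values as reported, 4 other scalings, edgeR and DESeq2, a term for the library set, and fits without 1 library. Filled points have an adjusted p under 0.05, and these occur for 3 strands with scaling to the total of all miRNA reads.

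Other miRNAs described as repressors of EZH2 or of further Polycomb subunits were read from a list of 16, which was written with earlier results of these data known. All 16 were in the table and 14 passed the filter. Of these 0 were called in either direction with limma, edgeR or DESeq2, while 5 had an unadjusted p under 0.05 with limma, 3 with edgeR and 4 with DESeq2, beside 11.2%, 10.2% and 11.5% of all 607 miRNAs with these tools. In the limma fit 12 had a positive and 2 a negative log2 fold change, and the median was 0.85 beside 0.24 for all 607 miRNAs. The list includes 5 let-7 and miR-98 strands, which share a seed. The paper reported the let-7 family as raised in these cells, so the positive median of the list is no independent observation. With limma, let-7b-5p, let-7c-5p, miR-98-5p and miR-217 were higher with an unadjusted p under 0.05, and miR-200b-3p was lower.

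By the mean over the 6 libraries, miR-30d-5p led this list, with a Ctrl mean of 9406 ± 885 (SD, n = 3), a *MIR21*-KO mean of 11680 ± 1898 (SD, n = 3) and a log2 fold change of 0.30 (adjusted p = 0.719 from limma). let-7a-5p followed, at 6488 ± 2601 (SD, n = 3) and 12026 ± 3257 (SD, n = 3), and its log2 fold change was 0.92 (adjusted p = 0.447 from limma). Both exceeded miR-26a-5p and miR-101-3p in the mean of the libraries. miR-138-5p, another strand described to pair with EZH2, was near the level of miR-26b-5p, its Ctrl mean being 347 ± 378 (SD, n = 3) and its *MIR21*-KO mean 589.5 ± 459 (SD, n = 3). Its set B libraries also lay above its set A libraries. The same held for let-7a-5p, let-7b-5p, miR-137 and miR-181a-5p, while for miR-25-3p set A lay above set B. miR-214-3p and miR-124-3p did not pass the filter.

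Patterns most like those of the abundant strands were sought among 331 miRNAs of mean value 10 or higher, by the Pearson correlation of log2(value + 1) over the 6 libraries. For miR-26b-5p these were miR-369-3p (r = 0.991), miR-493-5p (r = 0.990) and miR-656-3p (r = 0.982), all 3 from chromosome 14. miR-26a-5p was most like miR-323b-3p (r = 0.965), also from chromosome 14, miR-450a-5p (r = 0.923) from the X chromosome and let-7e-3p (r = 0.893) from chromosome 19. For miR-101-3p the closest were miR-744-5p (r = 0.678), miR-550a-5p (r = 0.662) and miR-4677-3p (r = 0.651). Between the strands themselves, r was 0.846 for miR-26a-5p and miR-26b-5p, -0.634 for miR-26a-5p and miR-101-3p and -0.601 for miR-26b-5p and miR-101-3p. These values describe 6 libraries that share the division into sets and a scaling factor each, and they carry no test.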

How the data were processed

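Small RNA libraries of A549 cells (3 Ctrl, 3 *MIR21*-KO) were compared. The authors deposited 1 signal value per miRNA row and library, which is a TMM-scaled CPM. The submitters' processing notes name cutadapt 1.14, Bowtie2 2.3.2, SAMtools 1.5, featureCounts 1.5.3 and edgeR 3.18.1 with the build hg38. The authors' own log2 fold changes and p-values, also deposited, were not used. Dividing by what 1 read was worth gave whole reads for 100% of values in every library (relative tolerance 1e-06). The 2813 rows were summed by name to 2588 miRNAs. Replicates differed by far more than counting noise (chi-square per degree of freedom 130 to 2560), and none were merged.

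limma 3.58.1 (R 4.3.3, lmFit and eBayes with trend, condition as the only term) was run on log2(value + 1), with Benjamini-Hochberg adjustment over all miRNAs tested. Ratios were compared by exact permutation tests. edgeR 4.0.16 (quasi-likelihood) and DESeq2 1.42.0 on the recovered reads, other pseudocounts (0.1 and 10), filters and scalings, a replicate block, a library set term, the highest row of a name and omission of each library served as alternatives. The procedure was tested on simulated counts, in which 200 of 607 miRNAs were changed. At a dispersion (a measure of the spread between libraries) of 0.02, it called 87% of log2 changes of 1 and 98% of 2. At a dispersion of 0.3, it called 0% of log2 changes of 1 and 52.5% of 2. With a spread as wide as that, a change of 1 would be missed in such counts. The simulated libraries had no division into sets, and miR-21-5p was given a median level in them. These shares therefore need not hold for the real libraries. Named were the 5 strands, miR-21, partner strands, seed sharers, a Polycomb list, cell markers and the 3 most similar miRNAs by correlation. The strands, lists and tests were chosen with earlier results of these data known. Sequences came from RefSeq (GRCh38.p14) and GENCODE 29. All 5 strands had an entry.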

Additional observations from a re-analysis of the deposited data

How the results depend on the processing

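miR-26a-5p and miR-26b-5p kept a positive log2 fold change under all 19 alternatives and miR-26b-3p under all 18 that could be run. These alternatives draw on the same libraries and are no independent tests, and within set B the difference for miR-26b-5p was -0.08. The sign of miR-26b-3p carries little weight, since it passed the filter only through Ctrl replicate 3 and *MIR21*-KO replicates 1 and 2. The filter on a mean value of at least 10 removed miR-26b-3p and miR-26a-2-3p. Calls of the strands changed with 1 setting: with libraries scaled to all miRNA reads, 3 were called higher in place of 0 (1.97 for miR-26a-5p, 2.38 for miR-26b-5p, 1.32 for miR-101-3p), a total that includes miR-21-5p. The sign turned for miR-101-3p with that scaling and without Ctrl replicate 1 (0.0108), for miR-26a-2-3p with that scaling (0.65) and without Ctrl replicate 2 (0.21), and for the miR-26b strand ratio with a pseudocount of 0.1 (1.09). With each library left out in turn, log2 fold changes ran from 0.27 to 0.85 for miR-26a-5p, from 0.55 to 1.67 for miR-26b-5p, from 0.38 to 1.10 for miR-26b-3p, from -1.08 to 0.21 for miR-26a-2-3p and from -0.19 to 0.01 for miR-101-3p.

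Over all miRNAs, 0 were called higher and 5 lower. Higher calls numbered 196 with scaling to all reads, 4 with DESeq2 and 71 with the library set term. Lower calls numbered 3 with a pseudocount of 10, 9 with median centring, 19 with DESeq2, 39 with the set term and 2 with the replicate block, and ran from 2 to 5 with each library left out. The cause was not tested. Replicate numbers did not pair the samples: the correlations of the deviations of same-numbered libraries were -0.88, -0.71 and -0.91, and no library correlated best with its own number. Under the replicate block the log2 fold changes of the strands were the same and 0 were called, with an adjusted p of 0.950 for miR-26a-5p and for miR-26b-5p from limma. Depth limited the 3p strands of miR-26, which had at most 54 reads in a library.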
